A study of Homo sapiens with 8 samples.

Results

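The 40 genes described here make up the machinery of glycolysis and of the cellular response to low oxygen, and were taken by symbol from a deposited table of 62700 rows. They fall into 23 genes of glucose transport, glycolysis and pyruvate fate and 17 genes of the hypoxia-inducible factors (HIFs), their regulators and their other targets. Transcripts were measured in foam cells made from THP-1, a single human monocytic leukaemia line. The cells became macrophages under the phorbol ester PMA (50 ng/mL, 72 h) and were then given acetylated low-density lipoprotein (AcLDL) for 48 h, a modified lipoprotein that macrophages take up by scavenger receptors. The 4 FCs_AF libraries came from cells given 0.5 µM auranofin (AF), a gold drug that blocks the antioxidant enzyme thioredoxin reductase, and the 4 FCs_DMSO libraries from cells given vehicle, below 0.1% by volume. Both groups shared the PMA and the AcLDL, and the labels describe no change of oxygen for either. The sample protocol starts the drug 24 h ahead of the lipoprotein and keeps it on, whereas the series' design text places it afterwards.

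Glycolysis turns glucose into pyruvate in the cytosol, and lactate dehydrogenase then converts pyruvate into lactate, which regenerates NAD+ and lets the pathway run without oxygen. HIF is a dimer of an oxygen-sensitive alpha subunit and ARNT. With oxygen present, prolyl hydroxylases mark the alpha subunit for destruction through VHL, and without it the dimer binds DNA and raises transcription of many glycolytic genes and of genes for blood vessel growth, mitophagy and collagen modification. Macrophages are known to lean on both when activated. Messenger levels of the HIF subunits do not measure HIF protein, which is controlled mainly by that destruction.

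Library totals ran from 19336073 counts (DMSO replicate 4) to 32325981 (AF replicate 2). AF replicate 1 stood apart, with 34.8% of its counts in ribosomal RNA where the other 7 libraries had 0.743% to 0.963%. Levels are in CPM, the share of a library's reads scaled to a fixed total, after correction by TMM factors, which were 0.679 in that library and 1.04 to 1.08 elsewhere. The library names share 4 stems, 1 for each pair of AF replicates 1 and 2, AF 3 and 4, DMSO 1 and 2, and DMSO 3 and 4, and nothing states that libraries came from separate cultures, so each p-value reflects library-to-library spread alone, which may be technical. All 9 macrophage markers were detected. They summed to 3553 to 4001 CPM in AF and 4231 to 4913 CPM in DMSO libraries, with CD14 and ITGAM higher and LYZ, MSR1 and FCGR1A lower in AF, and their part in the results was not tested. Most of the difference between the sums lay in LYZ, with a mean of 745 CPM in AF and 1434 CPM in DMSO libraries. CSF1R, CD163, TYROBP and SPI1 were not called. The 6 markers of T cells, B cells, epithelium, fibroblasts, endothelium and erythroid cells summed to 0.390 to 1.17 CPM in AF and 0.577 to 0.892 CPM in DMSO libraries, with EPCAM and HBB at 0 counts in all 8. In such bulk RNA, fewer cells of a type and less RNA per cell cannot be told apart.

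Among the HIF factors and other HIF targets, 7 of the 15 genes tested were called higher in AF and 0 lower, led by NDRG1, VEGFA and HIF1A itself. Among the 23 genes of glycolysis and its inlets and outlets, 4 were called higher (SLC2A3, HK2, ALDOC and PDK1), 2 lower (HK3 and TPI1) and 17 neither, with the abundant enzymes GAPDH, ENO1, PKM and PGK1 among those 17. The call is an adjusted p under 0.05 in edgeR's quasi-likelihood test with Benjamini-Hochberg adjustment over 17535 genes. Across all of those genes 7.62% were called higher and 7.81% lower, 15.4% in all. In the HIF block 46.7% were called higher and in the glycolysis block 17.4% higher and 8.70% lower. Of the HIF block 0 were lower at an unadjusted p under 0.05 as well, and 0 by DESeq2. The median log2 fold change was 0.26 in the HIF block and -0.004 in the glycolysis block, against 0.005 over all genes tested. The CPM of the AF and DMSO libraries did not overlap in 12 of the 38 genes with AF higher and in 2 with AF lower, as was the case in 9.86% and 9.68% of all genes tested, 19.5% in all.

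These genes were more abundant than most, with a median of 73.7 CPM against 12.9 CPM over all genes tested, and abundant genes are called more often. Among the 9502 tested genes that averaged 10 CPM or more, 10.4% were called higher and 9.64% lower, 20.1% in all. At that level 7 of 13 HIF-block genes were called higher and 0 lower, and 3 of 20 glycolysis genes higher and 2 lower. No test of the difference between the blocks was made. With library totals in place of TMM factors the median over all genes shifted by -0.15, and of the 40 genes only SLC2A3 and NDRG1 were called higher and only HK3 lower.

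**Figure D1:**
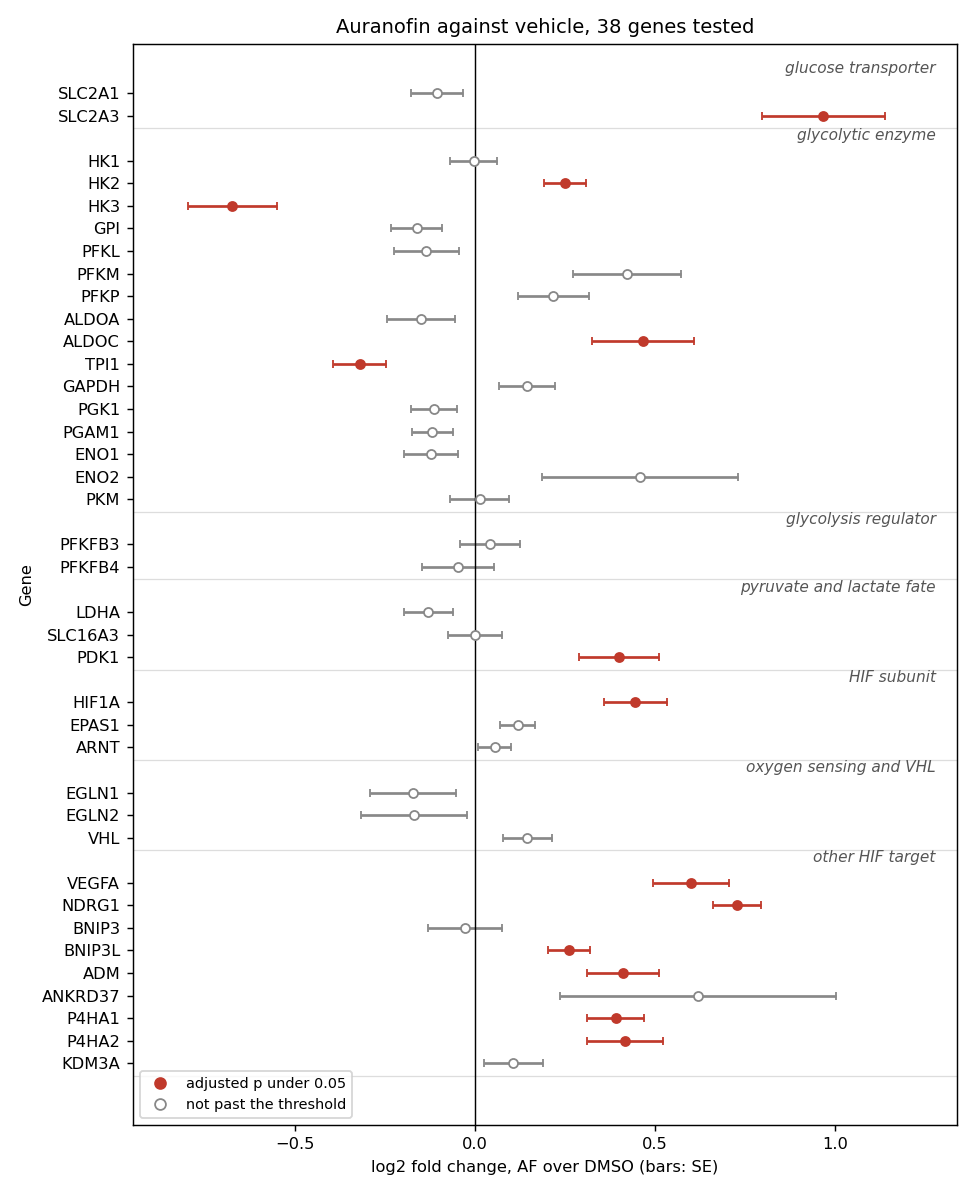
Log2 fold change of AF over DMSO for the 38 genes tested (x axis) with its standard error (bars), by gene (y axis) and grouped by role. SLC2A3 at 0.97 and NDRG1 at 0.73 lie furthest to the right and HK3 at -0.67 furthest to the left, while most enzymes sit within 0.2 of 0.

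HIF binds DNA at a core of ACGTG or GCGTG, and the promoters below show how widely that core is spread among genes that were and were not called. RefSeq promoter windows (GRCh38.p14, 250 bases before to 50 after a start) were found for 35 of the 40 genes (all but SLC2A3, VHL, VEGFA, NDRG1 and BNIP3L), and both cores were searched on both strands. The palindrome CACGTG, which other factors also bind, reads as ACGTG on either strand and counts as a pair of matches. Either core was present in 30 of the 35 genes, 85.7%, against 68.8% of the 11303 tested genes and 52.4% of all 27305 genes with a window, and ACGTG in 54.3%, 31.8% and 24.9%. GCGTG was present in 57.1%, 57.2% and 40.6%. A gene counts if any of its windows matches, and the 35 genes had 64 windows where the 11303 tested genes had 16333. By window, either core was present in 64.1% for the 35 genes and 59.8% for tested genes. The window shares were 35.9% and 25.2% for ACGTG, and 39.1% and 47.7% for GCGTG. The share with either core was 6 of 7 among the genes called higher that had a window (of 11 called higher), 1 of 2 among those called lower and 22 of 24 among those not called. A match is a description, not a binding site. Shown are genes called higher with matches (HK2, PDK1 and P4HA1) and with none (P4HA2), genes not called that are rich in matches (LDHA and PGK1), and genes called lower with matches (TPI1) and with none (HK3). HK2, PDK1, LDHA and TPI1 each have another window, which is not shown. In PDK1 and TPI1 that window has no match, in LDHA 1 to GCGTG, and in HK2 2 to ACGTG and 1 to GCGTG. Each window shown is written 5′ to 3′ on the gene's strand, with matches in capitals.
HK2 (chr2:74834920-74835219, plus strand): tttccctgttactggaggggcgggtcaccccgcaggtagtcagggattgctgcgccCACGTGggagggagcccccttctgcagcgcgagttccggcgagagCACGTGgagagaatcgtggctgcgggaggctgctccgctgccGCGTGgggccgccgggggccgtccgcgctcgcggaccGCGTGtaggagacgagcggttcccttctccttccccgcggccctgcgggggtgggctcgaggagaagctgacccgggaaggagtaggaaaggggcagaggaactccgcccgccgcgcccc
PDK1 (chr2:172555840-172556139, plus strand): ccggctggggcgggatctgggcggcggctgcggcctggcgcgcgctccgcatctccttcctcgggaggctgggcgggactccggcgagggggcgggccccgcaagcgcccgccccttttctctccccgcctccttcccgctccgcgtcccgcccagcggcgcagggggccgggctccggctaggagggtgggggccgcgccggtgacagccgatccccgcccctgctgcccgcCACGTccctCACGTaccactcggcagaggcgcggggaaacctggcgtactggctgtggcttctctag
P4HA1 (chr10:73096817-73097116, minus strand): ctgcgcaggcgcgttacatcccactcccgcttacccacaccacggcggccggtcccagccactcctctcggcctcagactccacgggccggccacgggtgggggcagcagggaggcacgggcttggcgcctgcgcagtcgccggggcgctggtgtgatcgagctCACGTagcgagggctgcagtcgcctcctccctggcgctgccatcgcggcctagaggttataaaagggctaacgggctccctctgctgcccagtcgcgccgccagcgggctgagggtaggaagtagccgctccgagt
P4HA2 (chr5:132227042-132227341, minus strand): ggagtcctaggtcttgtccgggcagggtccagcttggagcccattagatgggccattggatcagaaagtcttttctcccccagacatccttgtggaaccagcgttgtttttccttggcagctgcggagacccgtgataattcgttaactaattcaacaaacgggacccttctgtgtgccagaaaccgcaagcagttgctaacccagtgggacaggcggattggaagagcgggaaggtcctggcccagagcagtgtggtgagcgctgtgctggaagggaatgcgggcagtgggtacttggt
LDHA (chr11:18394313-18394612, plus strand): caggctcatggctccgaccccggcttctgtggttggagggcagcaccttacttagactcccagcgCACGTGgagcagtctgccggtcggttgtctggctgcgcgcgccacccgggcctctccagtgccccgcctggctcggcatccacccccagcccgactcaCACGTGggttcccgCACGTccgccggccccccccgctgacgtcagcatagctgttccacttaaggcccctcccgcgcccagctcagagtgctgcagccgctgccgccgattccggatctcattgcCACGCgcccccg
PGK1 (chrX:78103998-78104297, plus strand): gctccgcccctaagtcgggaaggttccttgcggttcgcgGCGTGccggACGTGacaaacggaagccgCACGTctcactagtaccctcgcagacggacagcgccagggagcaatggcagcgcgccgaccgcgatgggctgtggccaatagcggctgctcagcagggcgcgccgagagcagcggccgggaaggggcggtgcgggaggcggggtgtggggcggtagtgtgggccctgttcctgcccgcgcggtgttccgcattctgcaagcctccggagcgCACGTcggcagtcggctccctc
TPI1 (chr12:6867855-6868154, plus strand): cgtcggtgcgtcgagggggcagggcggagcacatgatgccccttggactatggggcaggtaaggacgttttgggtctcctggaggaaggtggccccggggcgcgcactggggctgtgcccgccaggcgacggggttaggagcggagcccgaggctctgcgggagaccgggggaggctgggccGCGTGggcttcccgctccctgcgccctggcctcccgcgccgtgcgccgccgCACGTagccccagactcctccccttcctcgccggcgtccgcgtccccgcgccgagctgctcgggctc
HK3 (chr5:176899297-176899596, minus strand): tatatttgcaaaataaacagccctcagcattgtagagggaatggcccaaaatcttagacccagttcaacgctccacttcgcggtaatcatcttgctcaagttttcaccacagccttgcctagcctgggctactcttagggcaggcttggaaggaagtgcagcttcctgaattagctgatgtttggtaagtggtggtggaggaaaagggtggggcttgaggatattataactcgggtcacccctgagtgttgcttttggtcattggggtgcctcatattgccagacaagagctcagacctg
The HK2 window shown holds 4 matches to ACGTG and the LDHA window shown 5, with 2 CACGTG palindromes in each. HK2 was called higher and LDHA was not called. PGK1, whose promoter is a textbook HIF target, had 3 matches to ACGTG and was not called. Whether HIF acted on any of these genes was not tested.

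Positions below are those of GENCODE 29 on GRCh38. Glucose enters macrophages through facilitative transporters, of which SLC2A3 rose and SLC2A1 was not called. SLC2A3 (chr12:7919230-7936275, minus strand), a high-affinity transporter abundant in neurons and blood cells, had 30.6, 27.4, 26.9 and 31.8 CPM in AF replicates 1 to 4, against 18.3, 10.6, 11.3 and 19.5 CPM in DMSO replicates 1 to 4. Every AF library lay above every DMSO library, and DMSO replicates 2 and 3 were lower than replicates 1 and 4. Its mean was 29.2 ± 2.40 CPM in AF and 14.9 ± 4.62 CPM in DMSO (SD, n = 4 each), a 1.95-fold rise (log2 fold change 0.97 ± 0.17, SE; adjusted p = 0.00164). SLC2A1, the widespread basal transporter and a classical HIF target, had 71.1, 61.2, 62.9 and 65.7 CPM in AF and 70.1, 76.0, 73.2 and 60.9 CPM in DMSO libraries. Its ranges overlapped and it was not called (log2 fold change -0.10 ± 0.07, adjusted p = 0.352). Per kilobase of exon SLC2A1 remained the more abundant, at 13.8 ± 0.919 against 4.74 ± 0.390 CPM per kb for SLC2A3 in AF libraries, and 14.8 ± 1.39 against 2.42 ± 0.751 CPM per kb in DMSO libraries.

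The hexokinases, which trap glucose in the cell by phosphorylating it, moved in both directions. HK2 (chr2:74833981-74893359, plus strand), the inducible form that sits on the mitochondrial outer membrane, had 92.8, 86.4, 80.6 and 87.2 CPM in AF and 68.7, 72.5, 76.6 and 73.8 CPM in DMSO libraries. The groups did not overlap, and HK2 was 1.19-fold higher (log2 fold change 0.25 ± 0.06, adjusted p = 0.00948); without AF replicate 1, the library rich in ribosomal RNA, the adjusted p was 0.0502. HK3 (chr5:176880869-176899332, minus strand), a form found mainly in myeloid cells, had 19.4, 14.9, 16.4 and 15.6 CPM in AF and 23.7, 32.0, 26.9 and 22.9 CPM in DMSO libraries. All 4 AF values lay below all 4 DMSO values, and HK3 fell by 0.67 on the log2 scale (SE 0.12, adjusted p = 0.00210). HK1, the housekeeping form, had 72.6 to 85.8 CPM in AF and 73.0 to 85.3 CPM in DMSO libraries, with a log2 fold change of -0.004 ± 0.065. Taken per kilobase of exon, HK2 made up 44.6 ± 1.74% of the summed level of the 3 hexokinases in AF and 36.8 ± 2.20% in DMSO libraries (SD, n = 4 each), HK3 15.7 ± 1.14% and 24.4 ± 2.38%, and HK1 39.7 ± 1.63% and 38.9 ± 1.30%. HK2 held the largest share in every AF library, and HK1 in all DMSO libraries except replicate 4.

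The other called enzymes were ALDOC and TPI1. ALDOC (chr17:28573115-28577264, minus strand), the aldolase best known from brain, had 7.43, 9.99, 8.52 and 8.42 CPM in AF and 7.56, 6.98, 5.19 and 5.09 CPM in DMSO libraries. AF replicate 1 lay just under DMSO replicate 1, so the groups overlapped, and the rise was 1.38-fold (log2 fold change 0.47 ± 0.14, adjusted p = 0.0371). It lost its call when any one of AF replicates 2 and 3 and DMSO replicates 2, 3 and 4 was left out, with adjusted p from 0.0505 to 0.120. TPI1 (chr12:6867119-6870948, plus strand), which interconverts the triose phosphates made by aldolase, had 106, 107, 97.7 and 100.2 CPM in AF and 115, 141, 141 and 115 CPM in DMSO libraries. Its groups did not overlap, with DMSO replicates 2 and 3 the highest, and its mean of 103 ± 4.45 CPM in AF against 128 ± 15.0 CPM in DMSO was a fall of 0.32 on the log2 scale (SE 0.07, adjusted p = 0.00910). The 4 TPI1 pseudogene copies in the table held 12.8% to 16.0% of the count of TPI1 itself in AF and 12.5% to 16.0% in DMSO libraries, so reads may be divided between them.

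**Figure D2:**
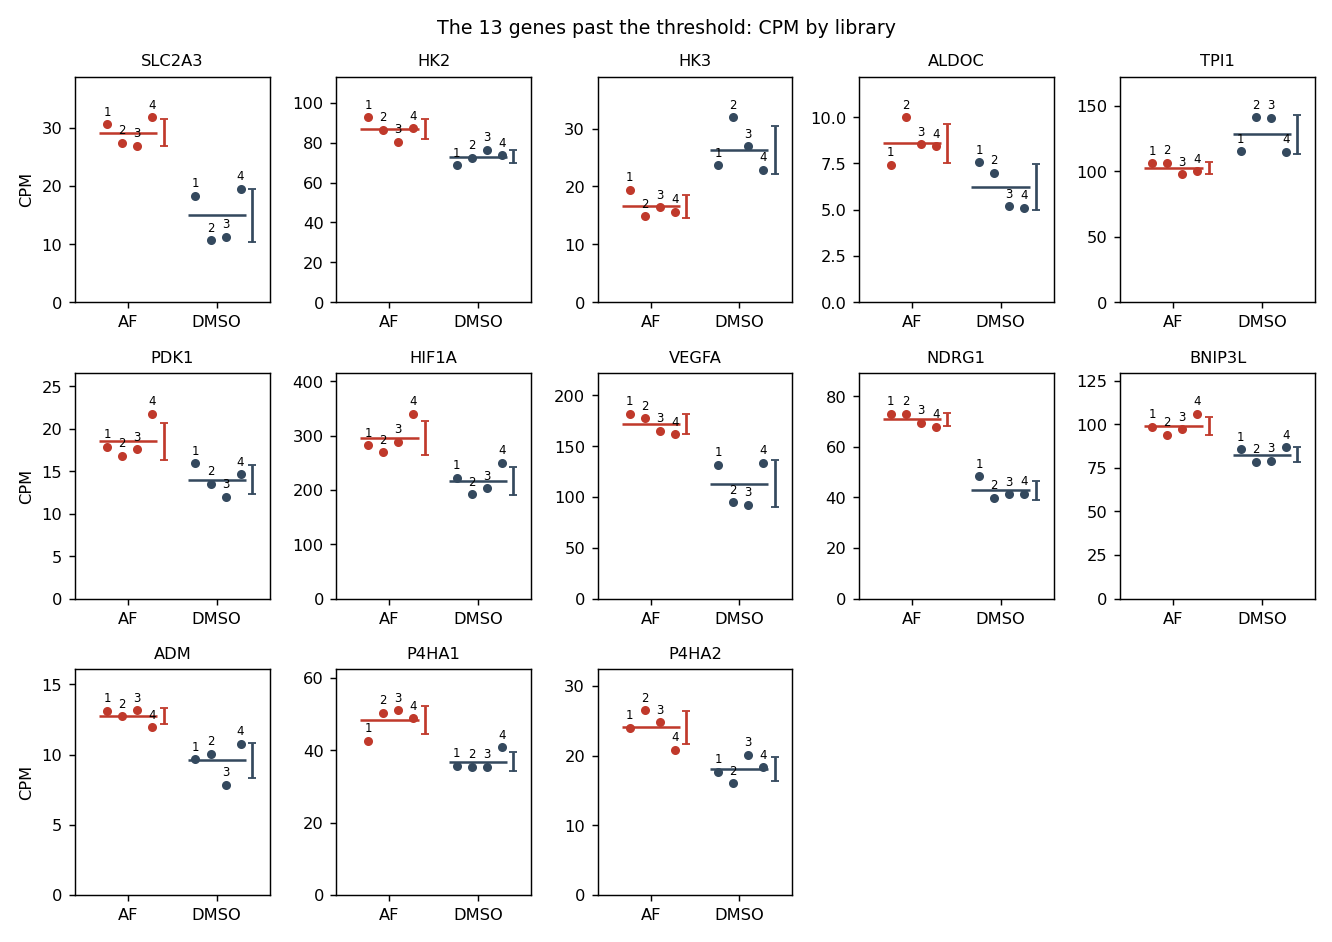
TMM-scaled CPM (y axis, from 0) of the 13 called genes in each of the 4 AF and 4 DMSO libraries (points), with the mean (horizontal line) and SD (bar) of each group. The AF points lie wholly above the DMSO points in 10 panels, wholly below in those of HK3 and TPI1, and overlap in that of ALDOC.

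GAPDH, PGK1, ENO1 and PKM, the abundant enzymes of the lower pathway, were not called. GAPDH, the NAD-dependent dehydrogenase of the pathway, had 674, 692, 679 and 665 CPM in AF and 559, 676, 661 and 557 CPM in DMSO libraries (log2 fold change 0.14 ± 0.08, adjusted p = 0.233). With library totals its log2 fold change was -0.0042, or 0.1455 with the median shift over all genes taken off. PGK1, which makes the first ATP of the pay-off phase, had 367, 364, 364 and 381 CPM in AF and 385, 410.3, 423 and 378 CPM in DMSO libraries (log2 fold change -0.11 ± 0.06, adjusted p = 0.246). In both genes DMSO replicates 2 and 3 exceeded DMSO replicates 1 and 4, and the groups overlapped. ENO1, the main enolase, ran from 798 to 849 CPM in AF and 811 to 963 CPM in DMSO libraries, and PKM, pyruvate kinase, from 809.9 to 957 and 798 to 973 CPM, with log2 fold changes of -0.12 ± 0.07 and 0.01 ± 0.08. Per kilobase of exon GAPDH led at 227 ± 3.82 CPM per kb in AF and 206 ± 21.4 in DMSO libraries, ENO1 followed at 156 ± 4.35 and 169.8 ± 14.5, and PKM came next at 105 ± 7.48 and 104 ± 9.55. The summed CPM of all 16 glycolytic enzymes was 3632 ± 144 in AF and 3731 ± 318 in DMSO libraries, and their ranges overlapped.

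**Figure D3:**
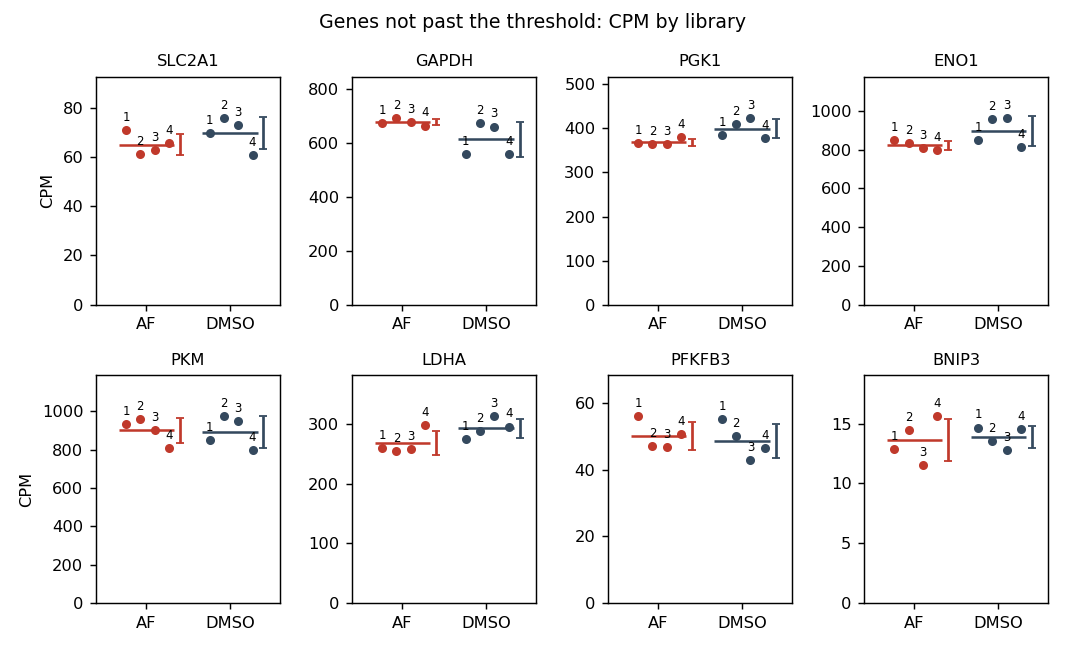
TMM-scaled CPM (y axis, from 0) of 8 genes that were not called, in each of the 4 AF and 4 DMSO libraries (numbered points), with the mean (horizontal line) and SD (bar) of each group. The groups overlap in every panel, and DMSO replicates 2 and 3 lie above replicates 1 and 4 for GAPDH, PGK1, ENO1 and PKM.

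The remaining enzymes were not called. GPI, the isomerase after hexokinase, differed by -0.16 ± 0.07 on the log2 scale (adjusted p = 0.140), and PGAM1, phosphoglycerate mutase, by -0.12 ± 0.06 (0.183). ALDOA, the main aldolase, had -0.15 ± 0.09 (0.309), with 42.3% of its exon bases overlapped by AC093512.2 on the same strand. ENO2, the neuronal enolase, reached at most 1.45 CPM in any library. Of the 3 phosphofructokinases, which catalyse the committed step, PFKL differed by -0.14 ± 0.09, PFKM by 0.42 ± 0.15 and PFKP by 0.22 ± 0.10 on the log2 scale, and their adjusted p were 0.342, 0.0712 and 0.152. Without AF replicate 4 the last 2 passed, at 0.0481 and 0.0316. Per kilobase of exon PFKL made up 68.6 ± 1.14% of that family's level in AF and 73.8 ± 1.41% in DMSO libraries, PFKP 28.9 ± 1.05% and 24.4 ± 1.21%, and PFKM 2.54 ± 0.113% and 1.86 ± 0.315%.

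The 2 regulators, PFKFB3 and PFKFB4, which make and break the sugar bisphosphate that activates phosphofructokinase, were not called. PFKFB3, a HIF target, had 55.9, 47.2, 46.8 and 50.6 CPM in AF and 55.0, 50.1, 42.8 and 46.6 CPM in DMSO libraries, with overlapping groups (log2 fold change 0.04 ± 0.08, adjusted p = 0.784). PFKFB4 differed by -0.05 ± 0.10 on the log2 scale (adjusted p = 0.794).

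At the pyruvate branch 1 of 3 genes was called. PDK1 (chr2:172555373-172608669, plus strand), a kinase that shuts off pyruvate dehydrogenase and so keeps pyruvate out of the mitochondrial cycle, had 17.9, 16.8, 17.6 and 21.8 CPM in AF and 15.9, 13.5, 12.0 and 14.7 CPM in DMSO libraries. The groups did not overlap, with AF replicate 4 the highest, and the rise was 1.32-fold (log2 fold change 0.40 ± 0.11, adjusted p = 0.0241). PDK1 missed the threshold without DMSO replicate 2 (adjusted p = 0.0646) or DMSO replicate 3 (0.0780) and with libraries of a stem summed (0.0524). LDHA, which makes lactate, had 261, 255, 259 and 299 CPM in AF and 275, 289, 313 and 296 CPM in DMSO libraries. AF replicate 4 stood above the other AF libraries and inside the DMSO range, and LDHA was not called (log2 fold change -0.13 ± 0.07, adjusted p = 0.218), though without that library it was called lower (log2 fold change -0.18, adjusted p = 0.0418). SLC16A3, the lactate exporter, had 192 to 237 CPM in AF and 199 to 236 CPM in DMSO libraries (log2 fold change 0.00 ± 0.07).

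Of the HIF subunits, 1 of 3 was called. HIF1A (chr14:61695513-61748259, plus strand), the widely expressed alpha subunit, had 283, 269, 288 and 340.3 CPM in AF and 222, 192, 203 and 250.3 CPM in DMSO libraries. The groups did not overlap, and replicate 4 was the highest in each. HIF1A was 1.36-fold higher (log2 fold change 0.45 ± 0.09, adjusted p = 0.00363). EPAS1, the other main alpha subunit, had 177, 169.9, 164 and 166 CPM in AF and 159, 154, 153 and 157 CPM in DMSO libraries, and ARNT, the shared partner, 132 to 134 and 126 to 131 CPM. All AF values exceeded all DMSO values in both, but the differences were small and missed the threshold (log2 fold changes 0.12 ± 0.05 and 0.05 ± 0.05, adjusted p = 0.112 and 0.465). With library totals both turned negative, at -0.038 for EPAS1 and -0.0944 for ARNT. That scaling shifted the median over all genes by -0.15, and with this shift taken off the values were 0.1117 and 0.0553. Per kilobase of exon HIF1A exceeded EPAS1, at 57.3 ± 6.05 against 23.2 ± 0.770 CPM per kb in AF libraries and 42.1 ± 4.98 against 21.3 ± 0.408 CPM per kb in DMSO libraries.

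None of the 3 oxygen-sensing genes tested was called by edgeR, at an unadjusted p under 0.05 or by DESeq2. EGLN1, the main prolyl hydroxylase that marks HIF alpha subunits, had 20.3, 20.3, 23.2 and 15.8 CPM in AF and 25.0, 21.5, 20.1 and 23.2 CPM in DMSO libraries, overlapping (log2 fold change -0.17 ± 0.12, adjusted p = 0.360). EGLN2, a second such enzyme, had -0.17 ± 0.15 (0.481) and shares 30.6% of its exon bases with genes on the same strand. VHL, which recognises the marked subunit, had 57.1 to 65.5 CPM in AF and 49.7 to 60.3 CPM in DMSO libraries (log2 fold change 0.15 ± 0.07, adjusted p = 0.168). Its unadjusted p in the edgeR test was 0.0501, just over that cut. EGLN3, the hydroxylase that HIF itself induces, was too low to test. It had 3, 3, 1 and 3 counts in AF and 0, 0, 0 and 3 counts in DMSO libraries, and a count of 0 allows up to 3 counts, or 0.103 to 0.128 CPM in the 3 DMSO libraries concerned.

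Of the 9 other HIF targets tested (of 10), 6 were called higher (66.7%) and 0 lower, against 7.62% called higher over all genes tested. These targets held 6 of the 7 calls of their block, and 9 of its 15 genes tested. NDRG1 (chr8:133237171-133302022, minus strand), a stress-responsive gene strongly induced by hypoxia in many cells, had 72.9, 73.1, 69.6 and 67.8 CPM in AF and 48.4, 39.9, 41.2 and 41.5 CPM in DMSO libraries. The AF values sat close together and well above the highest DMSO value, a 1.66-fold rise with the smallest adjusted p of the 40 genes (log2 fold change 0.73 ± 0.07, adjusted p = 8.80e-06). VEGFA (chr6:43770184-43786487, plus strand), the growth factor of blood vessels, had 182, 177, 165 and 161 CPM in AF and 132, 94.8, 92.2 and 134 CPM in DMSO libraries. No AF value fell inside the DMSO range, in which replicates 2 and 3 were low as they were for SLC2A3, and the rise was 1.52-fold (log2 fold change 0.60 ± 0.11, adjusted p = 0.00166).

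ADM (chr11:10304680-10307397, plus strand), a vasodilator peptide, had 13.1, 12.7, 13.2 and 11.9 CPM in AF and 9.68, 10.0, 7.83 and 10.8 CPM in DMSO libraries, without overlap (log2 fold change 0.41 ± 0.10, adjusted p = 0.0121). P4HA1 and P4HA2, the catalytic subunits of collagen prolyl hydroxylase, both rose. P4HA1 (chr10:73007217-73096974, minus strand) had 42.6, 50.4, 51.1 and 48.8 CPM in AF and 35.7, 35.3, 35.5 and 40.8 CPM in DMSO libraries (log2 fold change 0.39 ± 0.08, adjusted p = 0.00384). P4HA2 (chr5:132191838-132295315, minus strand) had 24.0, 26.5, 24.8 and 20.9 CPM in AF and 17.7, 16.0, 20.1 and 18.3 CPM in DMSO libraries (log2 fold change 0.42 ± 0.11, adjusted p = 0.0156). Neither gene's groups overlapped, although P4HA2 missed the threshold without DMSO replicate 2 (adjusted p = 0.0524).

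The related mitophagy receptors BNIP3L and BNIP3, which recruit autophagosomes to mitochondria, differed in their result. BNIP3L (chr8:26382898-26505636, plus strand) had 98.5, 94.0, 97.2 and 106 CPM in AF and 85.7, 78.5, 79.0 and 87.0 CPM in DMSO libraries, without overlap (1.20-fold, log2 fold change 0.26 ± 0.06, adjusted p = 0.00717). BNIP3 had 12.8, 14.5, 11.6 and 15.6 CPM in AF and 14.7, 13.6, 12.8 and 14.6 CPM in DMSO libraries, with overlap (log2 fold change -0.03 ± 0.10, adjusted p = 0.887). BNIP3 has 44 pseudogene copies in the table, which together held 29.2% to 33.3% of its count in AF and 24.8% to 28.3% in DMSO libraries, so its own value is uncertain.

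The 3 remaining targets were not called or not tested. KDM3A, a histone demethylase, had 84.1 to 116 CPM in AF and 88.0 to 98.5 CPM in DMSO libraries (log2 fold change 0.11 ± 0.08, adjusted p = 0.413). ANKRD37 stayed below 1 CPM in every library (log2 fold change 0.62 ± 0.38, adjusted p = 0.302), and 35.2% of its exon bases lie opposite UFSP2. CA12, a carbonic anhydrase, had 2 to 8 counts in AF and 3 to 6 in DMSO libraries and was not tested.

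Ratios of related genes within a library do not depend on scaling, and 12 were tested by a two-sided exact permutation test over libraries, for which 4 against 4 can give no p below 0.0286. Ratios of 5 pairs did not overlap between groups and reached that p, but after Benjamini-Hochberg adjustment over the 12 each came to 0.0686, so 0 passed. SLC2A3 to SLC2A1 was 0.431, 0.448, 0.428 and 0.485 in AF and 0.261, 0.140, 0.154 and 0.321 in DMSO libraries, a log2 difference of 1.12. HK3 to HK1 was 0.227, 0.182, 0.205 and 0.215 in AF and 0.299, 0.384, 0.316 and 0.313 in DMSO libraries, a log2 difference of -0.66. PFKP to PFKL was 0.231, 0.211, 0.239 and 0.232 in AF and 0.189, 0.164, 0.175 and 0.189 in DMSO libraries, a log2 difference of 0.35. PFKM to PFKL and BNIP3L to BNIP3 also lay wholly higher in AF, by 0.56 and 0.30 on the log2 scale. Between the groups the ratios HK2 to HK1, ALDOC to ALDOA, ENO2 to ENO1, EPAS1 to HIF1A, EGLN1 to EGLN2, PFKFB4 to PFKFB3 and P4HA2 to P4HA1 overlapped.

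**Figure D4:**
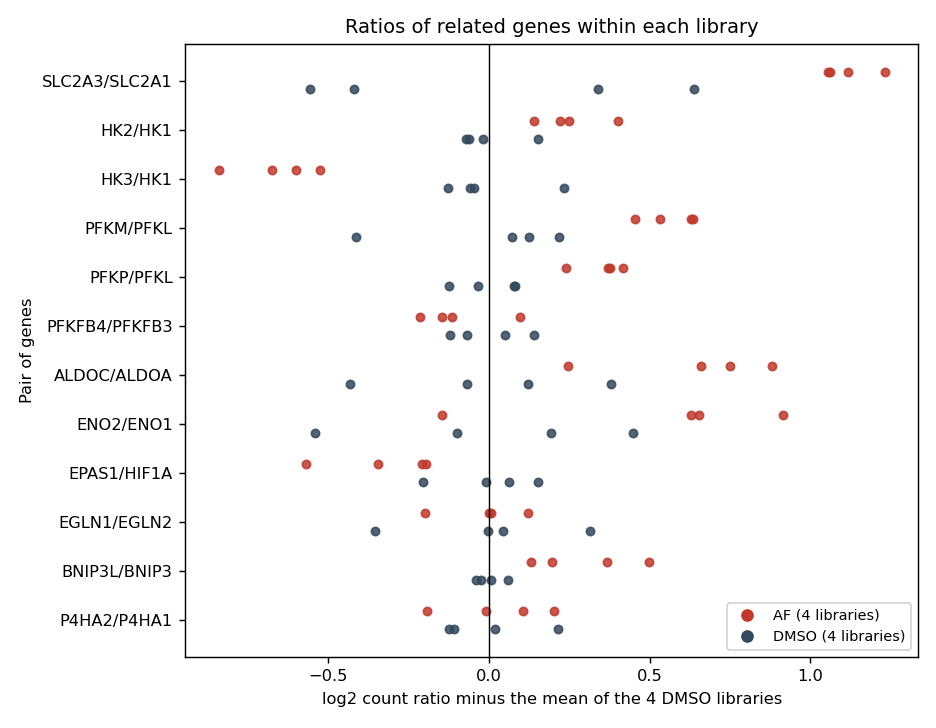
Log2 count ratio of each pair of related genes in each of the 4 AF and 4 DMSO libraries, minus the mean of the 4 DMSO libraries (x axis), by pair (y axis). AF points lie wholly to the right for SLC2A3/SLC2A1, PFKM/PFKL, PFKP/PFKL and BNIP3L/BNIP3, and wholly to the left for HK3/HK1.

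Lists of further genes of the same pathways were read in the same fit. They were chosen by known function, but with earlier results of these data known, so their shares are not independent evidence. Of 29 further HIF targets tested (of 34), 10 were called higher (34.5%, against 7.62% over all genes tested) and 0 lower, 1 was lower at an unadjusted p under 0.05 (ANGPTL4) and 0 by DESeq2, and the list's median log2 fold change was 0.18. Among all tested genes that averaged 10 CPM or more, 10.4% were called higher. BHLHE40, a transcriptional repressor, had 106, 83.1, 84.2 and 93.4 CPM in AF and 56.8, 43.5, 44.2 and 53.5 CPM in DMSO libraries (log2 fold change 0.89 ± 0.09, adjusted p = 2.99e-05). DDIT4, an inhibitor of mTOR signalling that other stresses also induce, had 88.0, 81.5, 75.1 and 83.4 CPM in AF and 52.1, 39.1, 35.1 and 47.4 CPM in DMSO libraries (0.92 ± 0.10, adjusted p = 3.42e-05). TFRC, the transferrin receptor, whose messenger is also controlled by iron, had 294, 296, 310.4 and 339.7 CPM in AF and 205, 207, 211 and 219 CPM in DMSO libraries (0.56 ± 0.06, adjusted p = 4.02e-05). None of the 3 overlapped between groups.

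Among 27 other glycolysis and pyruvate genes tested (of 34), 3 were called higher and 3 lower, 11.1% each way, near the 7.62% and 7.81% over all genes tested, and the median log2 fold change was 0.01. PDK4, a sister kinase of PDK1 with the same substrate, went the other way: it had 11.4, 7.89, 8.72 and 14.7 CPM in AF and 21.2, 26.7, 27.5 and 24.2 CPM in DMSO libraries, without overlap, and fell by 1.23 on the log2 scale (SE 0.16, adjusted p = 0.000182). SLC16A1, a lactate and pyruvate carrier, had 73.9, 64.5, 69.3 and 76.3 CPM in AF and 78.9, 90.2, 89.1 and 87.1 CPM in DMSO libraries (-0.28 ± 0.06, adjusted p = 0.00877). PGAM5, which is on the list but is a mitochondrial phosphatase and not a glycolytic enzyme, had -0.28 ± 0.09 (adjusted p = 0.0399). Higher in AF were PDP2, a phosphatase that turns pyruvate dehydrogenase back on (0.34 ± 0.09, adjusted p = 0.0183), BPGM, which makes bisphosphoglycerate (0.28 ± 0.09, 0.0475), and SLC2A6, a lysosomal hexose transporter. SLC2A6 had 20.5, 35.7, 33.1 and 15.8 CPM in AF and 14.8, 17.0, 15.9 and 15.5 CPM in DMSO libraries, with AF replicates 2 and 3 the highest and AF replicate 4 inside the DMSO range (0.74 ± 0.20, adjusted p = 0.0213). PDP2, BPGM, SLC2A6 and PGAM5 each lost the call without at least 1 library, PDK4 and SLC16A1 without none.

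Of 12 genes of glycogen and sugar entry, 1 was called (8.33%, near the 7.81% called lower over all genes tested), GYS1, glycogen synthase, which was lower (-0.31 ± 0.09, adjusted p = 0.0317) and lost the call without any of 5 libraries (0.0625 to 0.143). Of 14 other HIF regulators tested (of 15), 1 was called (7.14%, near the 7.62% called higher over all genes tested), SIAH2, a ubiquitin ligase known to act on prolyl hydroxylases. SIAH2 had 68.5, 59.6, 64.5 and 72.8 CPM in AF and 52.8, 38.6, 36.5 and 50.6 CPM in DMSO libraries, without overlap (log2 fold change 0.57 ± 0.11, adjusted p = 0.00250).

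Each of the 8 libraries was also left out in turn. In 9 genes (SLC2A3, HK3, TPI1, HIF1A, VEGFA, NDRG1, BNIP3L, ADM and P4HA1) the call held in all 8 fits. HK2, ALDOC, PDK1 and P4HA2 lost it in the fits given with each gene, with log2 fold changes over the 8 fits of 0.21 to 0.29 for HK2, 0.38 to 0.58 for ALDOC, 0.31 to 0.47 for PDK1 and 0.36 to 0.48 for P4HA2. No called gene changed sign. Calls over all genes also varied with the library left out, between 1616 and 2964.

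**Figure D5:**
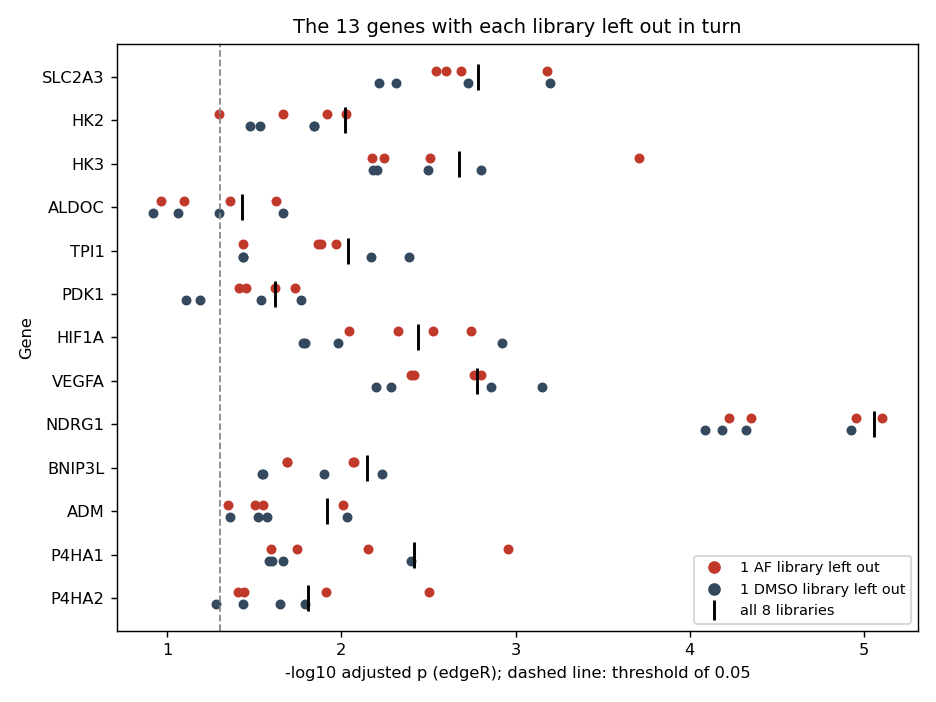
Minus log10 of the adjusted p from edgeR (x axis) for the 13 called genes (y axis) with all 8 libraries (black ticks) and with each AF or DMSO library left out in turn (points). The dashed line marks 0.05. NDRG1 lies furthest to the right in every fit, and the points of ALDOC lie on both sides of the line.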

How the data were processed

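Poly-A RNA from 4 auranofin and 4 vehicle foam cell libraries was sequenced after a stranded preparation from 250 ng of total RNA, per the labels' protocols. The authors deposited raw counts per gene, and the tools STAR 2.6.1d, featureCounts and Subread 1.6.3 and the build GRCh38 come from the submitters' processing notes. How strand and multi-mapped reads were handled, and with which annotation, is not given in the sources used here, so values of paralogs, pseudogene copies and overlapping genes are uncertain. Columns were matched to samples by title, which also gave groups and replicate numbers.

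The test was edgeR's quasi-likelihood test (edgeR 4.0.16, R 4.3.3, two-sided) after TMM scaling and the default filterByExpr, which kept 17535 genes, 38 of the 40 here among them. P-values were adjusted by Benjamini-Hochberg over those 17535 genes. The design was drug against vehicle with no block, leaving 6 residual degrees of freedom, and the biological coefficient of variation was 12.8%. The procedure was tested on simulated data. Standard errors were derived from each log2 fold change and its F statistic. CPM use TMM-scaled totals, and CPM per kb divides by the union of GENCODE 29 exons, which may differ from the authors' annotation. Ratios of related genes used counts plus 0.5 and exact permutation tests in scipy 1.17.1, and their adjusted p is over the 12 pairs. No molecular identifiers are described, so errors and the limit for a count of 0 cover libraries and counting only.

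Every gene is accounted for. Values per library are given for called genes and for a set of 15 chosen whatever their result, and from each list of other pathway genes the called genes with the smallest p, up to 3 in each direction. ANGPTL4 was named, and the summary over genes of at least 10 CPM added, after values were seen. The 40 genes and the lists were chosen with earlier results of these data known. No pair of libraries in a group looked like a repeat deposit of one library (chi-square per degree of freedom at least 2.78), so none were merged, but this does not show separate cultures. The lowest values were for pairs that share no name stem: DMSO 2 and 3 (2.78), AF 2 and 3 (4.09) and DMSO 1 and 4 (4.55). Pairs of a stem gave 6.72 to 21.6, and the other pairs without a shared stem 7.3 to 24. Alternatives were DESeq2 1.42.0, other scalings, ribosomal RNA rows left out, no filter, a replicate block, libraries of a name stem summed, and each library left out.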

Additional observations from a re-analysis of the deposited data

Results flagged for a closer look

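In 5 of the 100 groups of 4 libraries examined, 1 library stood apart from the other 3 by more than Dixon's 95% critical value for 4 samples, and chance alone flags about 5 in 100. PFKP, a phosphofructokinase, was low in AF replicate 4 at 26.4 CPM, against 32.6 to 33.2 CPM in the other AF libraries, and low in DMSO replicate 4 at 24.4 CPM, against 27.4 to 27.9 CPM. LDHA was high in AF replicate 4 at 299 CPM, against 255 to 261 CPM in the other AF libraries. In DMSO replicate 4, P4HA1 was high at 40.8 CPM, against 35.3 to 35.7 CPM, and KDM3A was high at 98.5 CPM, against 88.0 to 88.4 CPM in the other DMSO libraries. All 5 concern replicate 4 of either group.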

How the results depend on the processing

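All 13 calls kept their direction under every alternative run, and SLC2A3, HK3 and NDRG1 kept their call under each. Library totals alone, which leave the ribosomal RNA of AF replicate 1 in the scale, called 883 genes against 2705, of which 20.7% were higher against 49.4%, and left 1 glycolysis gene higher against 4, 1 lower against 2, and 1 HIF-block gene higher against 7. The same scaling gave 0 other glycolysis genes higher (3) and 1 lower (3), 0 glycogen genes lower (1), 0 other HIF regulators higher (1) and 3 further HIF targets higher (10). The replicate block called 4188 genes, 4 glycolysis genes lower (GPI at an adjusted p of 0.0440 and PFKL at 0.0378 added) and 5 higher (PFKP at 0.0225 added), 7 other glycolysis genes higher, 3 glycogen genes lower, 4 other HIF regulators higher and 1 further HIF target lower (0). Replicates of one number correlated at 0.094, 0.129, 0.029 and 0.192 in their deviations, and AF replicates 1, 2 and 4 correlated best with the DMSO library of their own number and AF replicate 3 with DMSO replicate 2 (0.042). Not all 4 exceeded 0.1 and the labels state no pairing, so whether the numbers pair the libraries was not settled. DESeq2 called 2 glycogen genes lower and 3 other HIF regulators higher, and the fit with no filter called 2 of each.

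Leaving out 1 library called 1616 to 2964 genes (1660 without AF replicate 3, 1616 without DMSO replicate 2 and 1648 without DMSO replicate 3), with 2 to 6 glycolysis genes higher (2 without DMSO replicate 2 or 3) and 2 to 3 lower, 6 to 7 HIF-block genes higher, 0 to 5 other glycolysis genes higher, 0 to 3 glycogen genes lower, 1 to 3 other HIF regulators higher and 8 to 12 further HIF targets higher. The cause of these changes was not tested. EGLN3 and CA12 had too few counts to test. Ratio tests gave 0 pairs past the threshold with either pseudocount (5 at an unadjusted p under 0.05), and without 1 library the smallest possible p is 0.0571. Alternatives for the other pathway genes were chosen after seeing the data.

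Log2 fold changes changed sign in 11 genes that were not called. With library totals they were -0.0042 for GAPDH, -0.14 for PKM, -0.12 for PFKFB3, -0.16 for SLC16A3, -0.038 for EPAS1, -0.0944 for ARNT, -0.005 for VHL and -0.0413 for KDM3A. That scaling shifted the median over all genes by -0.15. With this shift taken off they were 0.1455, 0.0091, 0.0261, -0.0053, 0.1117, 0.0553, 0.1447 and 0.1084 in the same order, so only SLC16A3 stayed negative. HK1 was 0.0005 with no filter, and SLC16A3 -0.0049 without ribosomal RNA rows and -0.0007 with the replicate block. Leaving out 1 library gave -0.0459 to 0.0408 for HK1, -0.0368 to 0.0613 for PKM, -0.0188 to 0.11 for PFKFB3, -0.0967 to 0.0017 for PFKFB4, -0.0464 to 0.0657 for SLC16A3 and -0.0981 to 0.046 for BNIP3.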
